A study of Mus musculus with 19 samples.

Results

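Transcripts of 10 genes that set, copy, remove or guard DNA methylation were followed across lines of mouse induced pluripotent stem cells. The genes were chosen by name from the count table: Dnmt1 and Uhrf1, which keep methylation through cell division, Dnmt3a, Dnmt3b and Dnmt3l, which add it, Tet1, Tet2, Tet3 and Tdg, which take part in its removal, and Zfp57, which guards it at imprinted genes. They are 10 of 52143 gene identifiers listed, and all 10 were among the 19700 genes with enough counts to be tested. RNA came from 2 lines whose db mutation, in the leptin receptor gene Lepr, had been corrected with CRISPR-Cas9 (corrected, db_c_1 and db_c_2, 4 libraries), from 4 lines homozygous for that mutation (db/db, 8 libraries) and from 4 wild-type lines (control, 7 libraries). The db/db parent of the corrected lines is not named in the labels. Every db/db and control line began as fibroblasts of an embryo at day 14.5 from heterozygous parents, and all carry a lentivirus with Oct4, Sox2, Klf4 and cMyc that returned the fibroblasts to pluripotency. By its title the study asks about signalling through this receptor in pluripotent cells, and the groups allow each transcript to be compared between mutant and wild-type lines and between corrected and mutant lines.

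Methylation of cytosines next to guanines (CpG) silences many promoters and marks which parental copy of an imprinted gene is read. DNMT1 copies the marks onto the new DNA strand after replication, and UHRF1 brings it to half-methylated sites. DNMT3A and DNMT3B methylate unmarked DNA, and DNMT3L, which has no catalytic activity of its own, stimulates them. The TET enzymes oxidise methylcytosine, TDG cuts out the oxidised bases so that repair can restore plain cytosine, and ZFP57 binds methylated control regions of imprinted genes and recruits TRIM28. Mouse pluripotent cells express most of these genes at high levels, and cells lacking ZFP57 lose imprints.

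The lines fell into 5 kinds by name. Control lines aB6_A5 and bB6_A5 share the name A5, aB6_B1 and bB6_B1 share B1, db/db lines adb_db5 and bdb_db5 share db5, and adb_db7 and bdb_db7 share db7. The biological coefficient of variation lay between 2.04% and 3.25% within pairs of a shared name, the corrected pair included, except for the db7 pair at 9.40%. It lay between 16.1% and 27.8% for lines of different names. Where lines of a name are near copies, p-values that count each line as a sample are too small. A fit that takes each of the names A5, B1, db5 and db7 as 1 unit is therefore given for the 10 genes and for counts over gene lists. It is called the fit with the shared name as the unit. In it db_c_1 and db_c_2 remain 2 units, although they are the closest pair (2.04%). Its p-values for corrected lines may therefore still be too small. The libraries held 27333914 to 41203703 estimated counts. The 12 pluripotency markers summed to 7280 and 7290 CPM (counts scaled to a common library size) in corrected lines, 7830 to 8380 in db/db lines and 7400 to 7940 in control lines. They include Pou5f1 (Oct4) and Sox2, which the lentivirus also carries, and its part in these sums was not tested. Transcripts of the Y-linked genes Ddx3y, Uty, Kdm5d and Eif2s3y were at or under 1.05 CPM in every line. Line adb_db7 stood apart with 25301 CPM on Gm42418, which overlaps a ribosomal RNA repeat, against at most 1446 CPM in the other lines. Values below are CPM per line after scaling, with duplicates summed, and differences are log2 fold changes ± SE with edgeR's quasi-likelihood test and Benjamini-Hochberg adjustment over all tested genes.

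Between db/db and control lines, 2 of the 10 genes passed the test, Dnmt3a upward and Tdg downward, where 16.9% of all tested genes passed (7.41% higher and 9.5% lower). The lines of the 2 groups did not overlap for 3 of the 10 (Dnmt3a, Tdg and Tet1), and for 23.3% of all genes. Between corrected and db/db lines 3 passed, Dnmt3l, Tet3 and Zfp57, all higher in corrected lines, against 36.7% of all genes (18.7% higher and 18.0% lower). Groups did not overlap for 4 of the 10, and for 60.6% of all genes. Between corrected and control lines 7 passed, 5 higher (Dnmt3a, Dnmt3l, Tet1, Tet3 and Zfp57) and 2 lower (Uhrf1 and Tdg), against 33.2% of all genes (16.2% higher and 17.0% lower). Groups did not overlap for 9 of the 10, and for 61.7% of all genes. With the shared name as the unit, edgeR called 0 of the 10 between db/db and control lines (0.161% of all genes, 3 of the 10 at an unadjusted p under 0.05). In that fit it called 2 between corrected and db/db lines (Tet3 and Zfp57, with 15.5% of all genes) and 5 between corrected and control lines (Dnmt3l, Tdg, Tet1, Tet3 and Zfp57, with 12.1%). Since db_c_1 and db_c_2 stay separate units in that fit, its calls of corrected lines may still rest on near copies. The comparisons share groups, so their calls are not independent of each other.

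**Figure D1:**
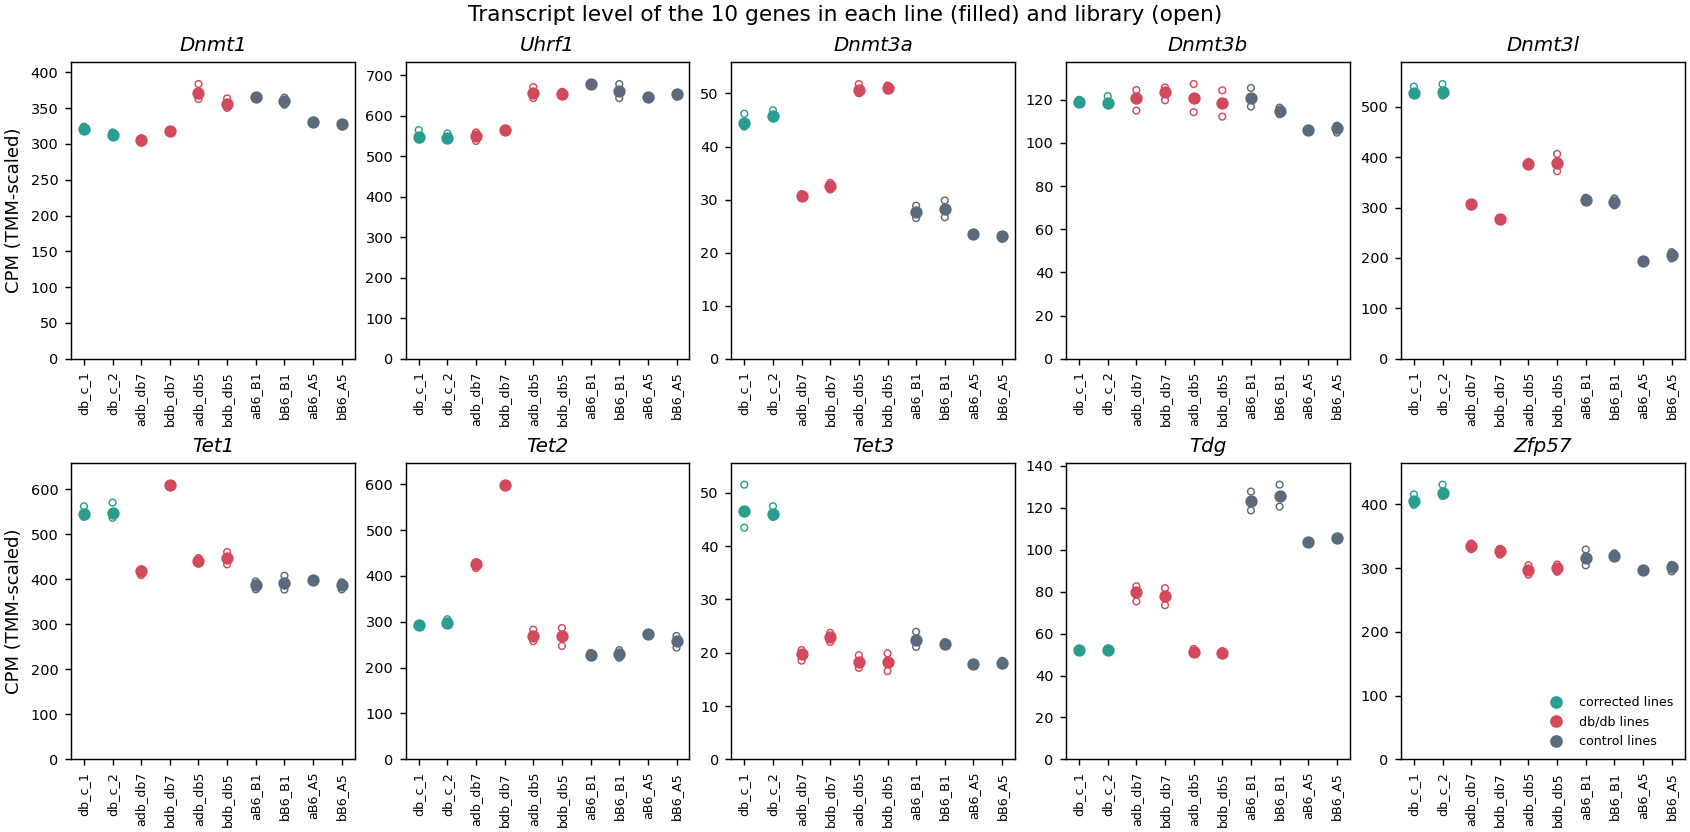
Transcript level (y axis, CPM, from 0) of each of the 10 genes in every line (x axis), with filled points for lines and open points for their libraries, corrected lines in green, db/db lines in red and control lines in grey. Tet3 stands near 46 CPM in both corrected lines and at 17.9 to 23.0 in the other 8, and Tet2 is highest in the 2 db7 lines.

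**Figure D2:**
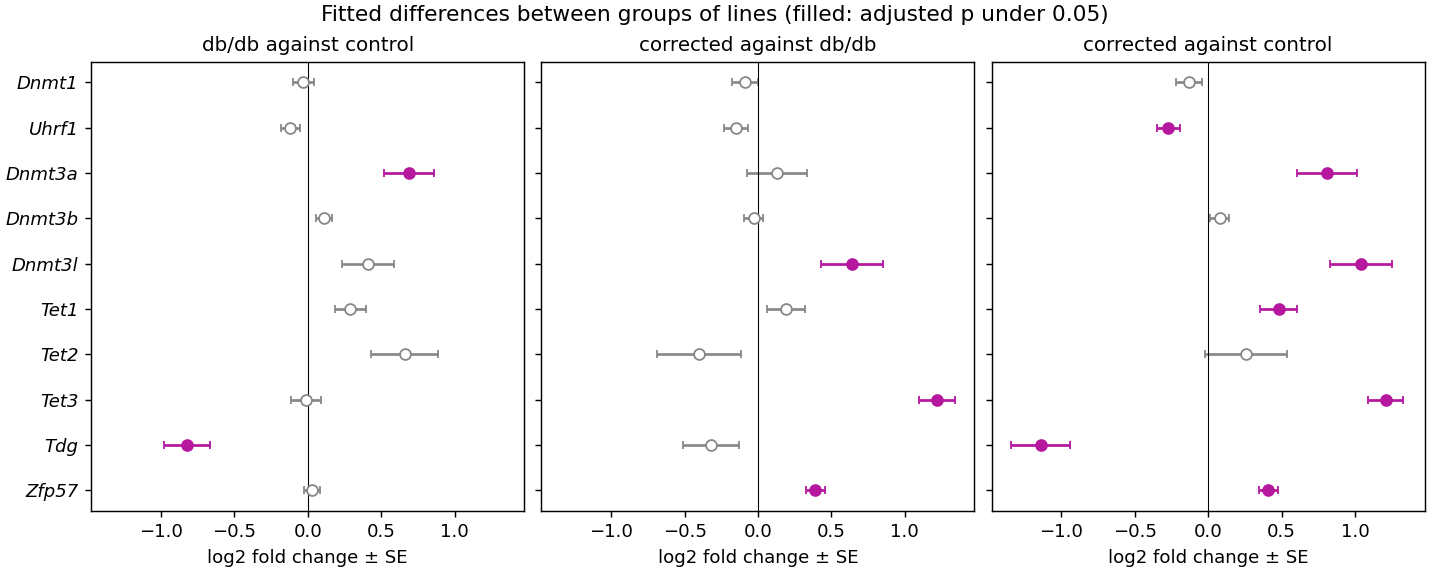
Log2 fold change (x axis) with its SE for the 10 genes in the 3 comparisons of groups, filled where edgeR's adjusted p was under 0.05. Filled points number 2, 3 and 7, and Tet3 has the largest difference between corrected and db/db lines among the 10 (1.22).

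Genes also differed between lines of the same genotype. Between db7 and db5 lines 8 of the 10 genes passed the test (42.0% of all genes), 4 in each direction. Between B1 and A5 control lines 6 passed, all higher in B1 (38.8% of all genes). These comparisons have 2 lines a side that share a name, so their p-values may measure technical spread.

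The maintenance genes varied little, with an SD over the 10 lines of 0.097 on the log2 scale for Dnmt1 and 0.125 for Uhrf1, and Dnmt3b alone of the 10 varied less (0.072). Dnmt1 (ENSMUSG00000004099, chromosome 9, 20907209 to 20959888, reverse strand, GRCm38) was at 321 and 313 CPM in corrected lines, at 306 and 318 in db7 and 372 and 356 in db5 lines, and at 366 and 359 in B1 and 331 and 328 in A5 controls. Its groups overlapped between db/db and control lines, and its difference was -0.03 ± 0.07 (edgeR adjusted p = 0.78). The spread within genotypes was larger than that between them: db7 lay below db5 (-0.22 ± 0.04, edgeR adjusted p = 0.00107) and B1 above A5 (0.14 ± 0.04, edgeR adjusted p = 0.0171). Uhrf1 (ENSMUSG00000001228, chromosome 17, 56303321 to 56323486, forward strand) was at 547 and 545 CPM in corrected lines, at 551 and 565 in db7 and 656 and 654 in db5 lines, and at 646, 653, 677 and 660 in control lines. The db7 lines thus lay near the corrected lines, and the db5 lines within the range of the control lines. Uhrf1 was lower in corrected than in control lines (-0.27 ± 0.08, edgeR adjusted p = 0.027), a call that ended with the shared name as the unit (edgeR adjusted p = 0.108) and with library size alone as the scaling (-0.14, edgeR adjusted p = 0.223). It ended as well without aB6_B1, bB6_A5, db_c_1 or db_c_2 (edgeR adjusted p = 0.0603, 0.0515, 0.165 and 0.17). Genes of chromosome 17 had a median of -0.16 in that comparison, and Uhrf1 less this median differed by -0.11.

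Uhrf1 and Dnmt1 are transcribed mostly in dividing cells. Of 16 proliferation genes, 10 fell and none rose in corrected lines relative to db/db lines (median log2 -0.31, against 0.02 over all tested genes), and 1 rose in db/db against control lines. In the fit by shared name 3 fell in corrected lines relative to db/db lines (edgeR). Over all tested genes 18.0% fell there, and 15.5% were called in either direction by shared name. Their summed level was 4170 and 4180 CPM in corrected lines, 4760 to 5060 in db/db lines and 4640 to 4900 in control lines. Their part in the level of Uhrf1 was not tested.

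The de novo genes differed from each other. Dnmt3a (ENSMUSG00000020661, chromosome 12, 3806007 to 3914443, forward strand) was at 44.5 and 45.7 CPM in corrected lines. In db/db lines it was at 30.7 and 32.6 CPM in db7 and at 50.7 and 51.0 in db5 lines, against 27.7 and 28.2 in B1 and 23.6 and 23.0 in A5 controls. Every db/db line lay above every control line, but db7 lines lay nearer to B1 control lines than to db5. Dnmt3a rose 1.61-fold in db/db against control lines (0.69 ± 0.17, edgeR adjusted p = 0.0236) and 1.76-fold in corrected against control lines (0.81 ± 0.20, edgeR adjusted p = 0.0132), while corrected minus db/db lines gave 0.13 ± 0.21 (edgeR adjusted p = 0.661). Between names of the same genotype it was lower in db7 than in db5 lines (-0.68 ± 0.04, edgeR adjusted p = 4.37e-07), a difference as large as that between genotypes. The call between db/db and control lines ended with the shared name as the unit (edgeR adjusted p = 0.251) and without aB6_A5, bB6_A5, adb_db5 or bdb_db5 (edgeR adjusted p = 0.0523 to 0.0545). The call between corrected and control lines ended with the shared name as the unit (edgeR adjusted p = 0.0732) and without db_c_1 or db_c_2 (0.0762 and 0.0894).

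Dnmt3b (ENSMUSG00000027478, chromosome 2, 153649450 to 153687730, forward strand) was at 119 CPM in both corrected lines, at 119 to 123 in db/db lines and at 106 to 121 in control lines. It passed in none of the comparisons between genotypes (log2 0.11 ± 0.05 for db/db against control, edgeR adjusted p = 0.18). Its 1 near copy among transcripts, Dnmt3c, a methyltransferase of the male germline in mice, was at most at 0.520 CPM.

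Dnmt3l (ENSMUSG00000000730, chromosome 10, 78041947 to 78063622, forward strand) was at 527 and 529 CPM in corrected lines, at 306 and 277 in db7 and 386 and 388 in db5 lines, and at 315 and 311 in B1 and 193 and 205 in A5 controls. Both corrected lines lay above all others, and the db7 and B1 lines met near 300 CPM. Dnmt3l rose 1.56-fold in corrected lines against db/db lines (0.64 ± 0.21, edgeR adjusted p = 0.0396) and 2.06-fold in corrected against control lines (1.04 ± 0.21, edgeR adjusted p = 0.00488). For db/db minus control lines it was 0.41 ± 0.18 (edgeR adjusted p = 0.142). With the shared name as the unit only the call against control lines remained of these (edgeR adjusted p = 0.112 against db/db and 0.0444 against control lines). The call against db/db lines also ended without adb_db7 or bdb_db7 (edgeR adjusted p = 0.0828 and 0.0751) and without either corrected line (0.157 and 0.164). Within controls, Dnmt3l was higher in B1 than in A5 lines by an amount like that between corrected and db/db lines (0.65 ± 0.05, edgeR adjusted p = 1.75e-06).

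Per kilobase of the longest coding transcript, in corrected lines, Dnmt3l averaged 289.8 CPM per kb, Dnmt3b 27.5 and Dnmt3a 4.65. In db/db lines these levels were 186, 28.0 and 4.26 CPM per kb, and in control lines 140.5, 26.0 and 2.65. The order of the 3 genes was the same in all groups. Bulk RNA cannot tell a change in the share of cells that express a gene from a change in the RNA per cell, for these or the other genes: fewer cells of a type and less RNA per cell cannot be told apart.

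Dnmt3l, Tet3 and Zfp57 moved in the same direction between corrected and db/db lines, so their promoters are shown, as 250 bases before to 50 after the start (RefSeq, GRCm38.p6). Of the starts given for a gene, the one nearest the GENCODE start was taken, which for Tet3 and Dnmt3l lies inside the GENCODE gene, and CpG dinucleotides are in capitals. Which start is used in these lines was not tested, since counts per gene do not show it. Other starts of Dnmt3l have promoters with 4 CpG (chr10:78049592-78049891) and 3 CpG (chr10:78055085-78055384), and other starts of Zfp57 have 4 and 9. The stretches lie at chr10:78042037-78042336 (forward strand) for Dnmt3l, at chr6:83441629-83441928 (reverse strand) for Tet3 and at chr17:37000913-37001212 (forward strand) for Zfp57, and each is written 5′ to 3′ on the strand of the gene.
Dnmt3l: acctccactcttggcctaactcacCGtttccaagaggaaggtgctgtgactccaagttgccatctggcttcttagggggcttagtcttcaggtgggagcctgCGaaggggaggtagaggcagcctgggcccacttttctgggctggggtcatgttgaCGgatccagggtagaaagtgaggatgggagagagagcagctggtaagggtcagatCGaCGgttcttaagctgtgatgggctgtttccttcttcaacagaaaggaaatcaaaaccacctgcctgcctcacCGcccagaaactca
Tet3: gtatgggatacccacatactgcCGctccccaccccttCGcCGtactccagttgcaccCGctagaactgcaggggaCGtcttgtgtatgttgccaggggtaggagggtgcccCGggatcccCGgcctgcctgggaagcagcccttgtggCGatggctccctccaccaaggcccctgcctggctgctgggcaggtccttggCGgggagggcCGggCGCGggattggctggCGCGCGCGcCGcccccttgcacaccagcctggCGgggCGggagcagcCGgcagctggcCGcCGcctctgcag
Zfp57: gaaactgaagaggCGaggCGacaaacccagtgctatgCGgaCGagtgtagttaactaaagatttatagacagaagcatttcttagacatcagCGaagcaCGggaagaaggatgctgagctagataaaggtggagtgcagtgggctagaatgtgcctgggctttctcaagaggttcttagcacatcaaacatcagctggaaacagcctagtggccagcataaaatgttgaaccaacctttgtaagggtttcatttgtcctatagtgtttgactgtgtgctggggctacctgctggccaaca
The promoters of Dnmt3l and Zfp57 hold 6 CpG each and that of Tet3 holds 22, where the median of 32851 RefSeq promoters is 7. The motif TGCCGC, which ZFP57 binds when methylated, is in the promoter of Tet3 and in 11.6% of all promoters, counting both strands. It was in 8 of 36 promoters (22.2%) of the genes listed as read from the maternal allele and in 10 of 45 (22.2%) of those listed as read from the paternal allele. These promoters hold a median of 16.5 and 13 CpG, more than the 7 over all promoters, and the motif itself holds a CpG. No enrichment was tested. The E2F words TTTCCCGC, TTTGGCGC and TTTCGCGC are in none of the 3 promoters, and at least 1 of them is in 1.84% of all promoters on either strand. Of the 10 genes, Tet2 (57) and Dnmt3a (46) have the promoters with most CpG at these starts, and Dnmt1 (2) the fewest. Other starts of Dnmt1 hold 12 and 33 CpG, so its place depends on the start taken. Over all 19 RefSeq promoters of the 10 genes an E2F word is in 2 (10.5%), which are other starts of Dnmt1 and Uhrf1 with 33 CpG each.

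The 3 TET genes had separate patterns. Tet3 (ENSMUSG00000034832, chromosome 6, 83362373 to 83459084, reverse strand) was at 46.6 and 46.1 CPM in corrected lines, at 18.3, 18.3, 19.7 and 23.0 in db/db lines and at 17.9, 18.1, 22.5 and 21.6 in control lines. Both corrected lines lay far above the other lines, which overlapped. Tet3 rose 2.34-fold against db/db lines (1.22 ± 0.12, edgeR adjusted p = 0.000124) and 2.31-fold against control lines (1.21 ± 0.12, edgeR adjusted p = 0.000163). Both calls were met with the shared name as the unit (edgeR adjusted p = 0.0149 and 0.0179), where db_c_1 and db_c_2 still count separately. The db/db lines differed from control lines by -0.01 ± 0.10 (edgeR adjusted p = 0.939). Genes of chromosome 6 had a median log2 difference of -0.01 between corrected and db/db lines (401 genes). Between B1 and A5 control lines that median was 0.28, and the difference of Tet3 was 0.29.

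Tet1 (ENSMUSG00000047146, chromosome 10, 62804570 to 62908996, reverse strand), the main TET enzyme of mouse pluripotent cells together with Tet2, was at 545 and 547 CPM in corrected lines. In db/db lines it was at 440, 448 and 417 CPM in adb_db5, bdb_db5 and adb_db7 but at 610 in bdb_db7, against 387 to 399 in control lines. Every db/db line thus lay above the control lines, and line bdb_db7 stood apart from the other 3. Tet1 differed by 0.29 ± 0.11 between db/db and control lines (edgeR adjusted p = 0.085), and without bdb_db7 it was 0.15 (edgeR adjusted p = 0.0401). Tet1 was higher in corrected than in control lines (0.48 ± 0.13, edgeR adjusted p = 0.0168; 0.0348 with the shared name as the unit), a call that ended without db_c_1 or db_c_2 (edgeR adjusted p = 0.0902 and 0.0953). Against db/db lines the difference was 0.19 ± 0.13 (edgeR adjusted p = 0.275), and without bdb_db7 it was 0.33 (edgeR adjusted p = 0.00111).

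Tet2 (ENSMUSG00000040943, chromosome 3, 133463679 to 133545139, reverse strand) was at 293 and 298 CPM in corrected lines. It was at 425 CPM in adb_db7, 599 in bdb_db7 and 270 and 268 in db5 lines, and at 273, 258, 228 and 230 in control lines. The db5 lines lay within the range of the control lines and the db7 lines above all others. In db7 lines Tet2 was 1.90-fold its level in db5 lines (0.93 ± 0.11, edgeR adjusted p = 6.28e-05), while db/db differed from control lines by 0.66 ± 0.23 (edgeR adjusted p = 0.0751). That between db/db and control lines passed by DESeq2 (0.67, adjusted p = 0.0263) and without adb_db5 or bdb_db5 (0.80 and 0.81, edgeR adjusted p = 0.0387 each). Genes of chromosome 3 had a median log2 difference of 0.31 between db7 and db5 lines (422 genes) and of 0.33 between db/db and control lines, so Tet2 and its chromosome's median moved in 1 direction. Less the chromosome's median, the difference of Tet2 between db7 and db5 lines was 0.62, and that between db/db and control lines 0.33. The labels do not report copy number, and its part was not tested.

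The 2 db7 lines, which share a name, differed most among the 10 genes in Tet1 (1.46-fold) and Tet2 (1.41-fold), both higher in bdb_db7. Of 9148 genes with at least 10 CPM, 1.19% differed between these 2 lines by 1.4-fold or more in either direction. That cut lies just under the fold of Tet2, and the share covers genes of all transcript lengths. The median log2 difference of bdb_db7 from adb_db7 was 0.29 for genes with transcripts over 10 kb, like Tet1. It was 0.21 for those of 8 to 10 kb, like Tet2. The other 8 genes differed between the 2 db7 lines by 0.904-fold to 1.17-fold.

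Levels moved with transcript length in some lines. Among genes whose longest coding transcript exceeds 10 kb (230 genes), the median log2 level relative to the mean of the 10 lines was 0.18 and 0.17 in corrected lines, 0.26 in bdb_db7, -0.10 to -0.05 in the other db/db lines and -0.13 to -0.05 in control lines. Among genes with transcripts of up to 2 kb (2031 genes) it was -0.20 and -0.21 in corrected lines, -0.07 in bdb_db7, 0.06 to 0.12 in the other db/db lines and 0.03 to 0.06 in control lines. Tet1 (14369 bases), Tet3 (10904), Dnmt3a (9685) and Tet2 (9179) have the longest transcripts of the 10 genes, and Dnmt3l (1822) the shortest. With each line's trend over transcript length removed before the fit, the call of Tet1 between corrected and control lines ended (0.17 ± 0.06, edgeR adjusted p = 0.0572), and so did those of Dnmt3a (0.60, edgeR adjusted p = 0.0882) and Uhrf1 (-0.23, edgeR adjusted p = 0.0555). The call of Dnmt3a between db/db and control lines ended too (0.63 ± 0.20, edgeR adjusted p = 0.0603), while Tet1 passed there (0.18 ± 0.05, edgeR adjusted p = 0.0348). In that fit Tet3 still rose in corrected lines relative to db/db lines (1.07 ± 0.09, edgeR adjusted p = 4.68e-05), and so did Dnmt3l (0.85 ± 0.21, edgeR adjusted p = 0.0109) and Zfp57 (0.52 ± 0.07, edgeR adjusted p = 0.00047). Tet2 was still higher in db7 than in db5 lines (0.75 ± 0.06, edgeR adjusted p = 2.63e-06).

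**Figure D3:**
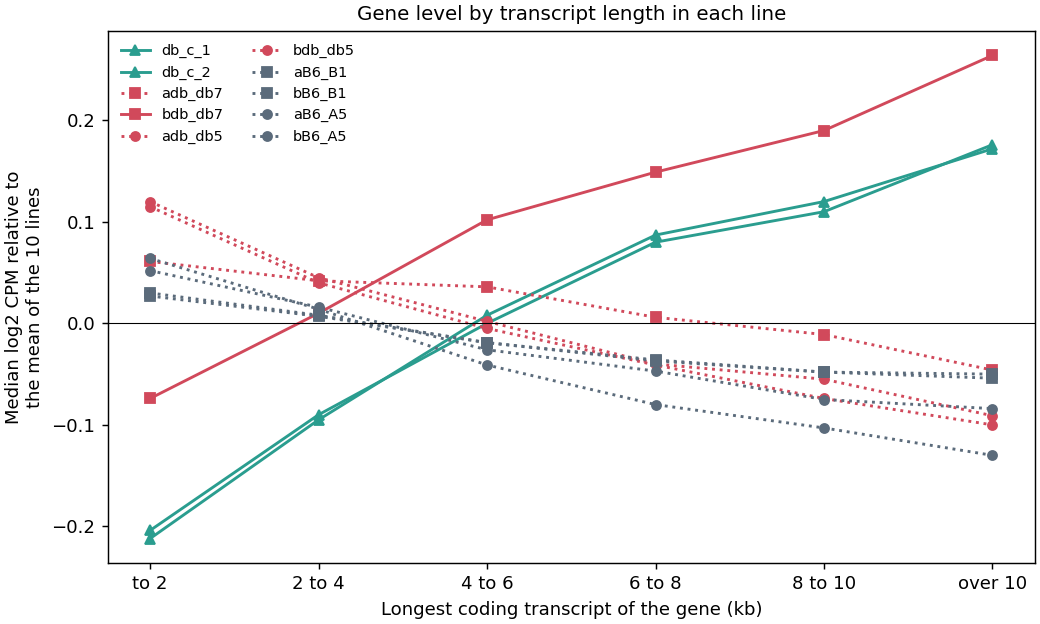
Median log2 CPM relative to the mean of the 10 lines (y axis) for genes with at least 10 CPM, binned by the length of their longest coding transcript (x axis, kb), with 1 line drawn per cell line, solid for bdb_db7 and both corrected lines. These 3 rise with length, to 0.26, 0.18 and 0.17 over 10 kb, and the other 7 fall.

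Tdg (ENSMUSG00000034674, chromosome 10, 82629828 to 82650799, forward strand) was at 52.0 CPM in both corrected lines, at 79.7 and 78.1 in db7 and 51.4 and 50.9 in db5 lines, and at 124 and 126 in B1 and 104 and 106 in A5 controls. No db/db or corrected line reached a control line. As counted, Tdg fell to 0.567-fold in db/db against control lines (-0.82 ± 0.16, edgeR adjusted p = 0.00805) and to 0.454-fold in corrected against control lines (-1.14 ± 0.20, edgeR adjusted p = 0.00244).

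These values depend on how reads were divided among near copies of Tdg. A search of GENCODE M21 transcripts found 3 processed pseudogenes, which are copies of a spliced transcript put back into the genome: Gm9855 (chromosome 10, 42054113 to 42055306, 99.2% identical over 1194 bases), Tdg-ps (chromosome 15, 82516311 to 82519278, 98.7% over 2968 bases) and Gm5597 (chromosome 7, 99.3% over 1193 bases). To show how little separates them, 120 bases of the last coding exon of Tdg (exon 10 of 10, chr10:82648578-82648697, forward strand) are set beside the same stretch of each copy (GENCODE M21 transcripts, GRCm38, 5′ to 3′). Stretches were sampled along the coding exons, and those above a set limit of differences from any copy were left out. Of the rest, the one with most differences summed over the 3 copies was taken. Bases at the positions where the 4 differ are in capitals.
Tdg: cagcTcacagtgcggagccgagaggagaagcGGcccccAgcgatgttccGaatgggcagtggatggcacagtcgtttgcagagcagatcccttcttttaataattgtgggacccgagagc
Gm9855: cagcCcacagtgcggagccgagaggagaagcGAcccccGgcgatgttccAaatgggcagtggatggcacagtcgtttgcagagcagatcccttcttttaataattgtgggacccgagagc
Tdg-ps: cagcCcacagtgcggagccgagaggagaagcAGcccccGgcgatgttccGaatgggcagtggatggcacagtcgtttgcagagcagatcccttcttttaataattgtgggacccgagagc
Gm5597: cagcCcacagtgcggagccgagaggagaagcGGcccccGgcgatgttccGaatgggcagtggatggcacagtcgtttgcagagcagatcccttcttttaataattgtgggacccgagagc
Within this stretch Gm9855 (chr10:42054136-42054255, reverse strand) differs from Tdg at 4 positions, Tdg-ps (chr15:82517535-82517654, forward strand) at 3 and Gm5597 (chr7:76244769-76244888, reverse strand) at 2.

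Gm9855 was given 16.1 and 15.2 CPM in corrected lines, 21.2 and 20.8 in db7 and 41.3 and 41.4 in db5 lines, and at most 0.273 in control lines. Tdg-ps was given 3.42 and 3.61 CPM in corrected lines, 4.92 and 4.86 in db7 and 11.03 and 11.9 in db5 lines, and at most 0.157 in control lines, and Gm5597 at most 0.0497 in any line. The copies were high where Tdg itself was low among db/db lines, and nearly without counts in control lines. Summed with its copies, Tdg was at 71.5 and 70.8 CPM in corrected lines, at 104, 104, 106 and 104 in db/db lines and at 104, 106, 124 and 126 in control lines. Between db/db and control lines the difference was then -0.14 ± 0.07 (edgeR adjusted p = 0.19), and between db7 and db5 lines 0.01 ± 0.04 (edgeR adjusted p = 0.824; 0.62 ± 0.04 as counted). The corrected lines stayed lower than control lines (-0.69 ± 0.09, edgeR adjusted p = 0.00049) and were then also lower than db/db lines (-0.55 ± 0.09, edgeR adjusted p = 0.00114), both also with the shared name as the unit (edgeR adjusted p = 0.0224 and 0.0259). As counted, the call between db/db and control lines ended with the shared name as the unit (edgeR adjusted p = 0.179). Whether the pseudogenes are transcribed in db/db lines or took reads of Tdg was not tested, since estimated counts do not keep the reads. For Uhrf1 a single near copy, Gm5648, was found, and its sum with Uhrf1 differed from Uhrf1 alone by under 1 CPM.

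**Figure D4:**
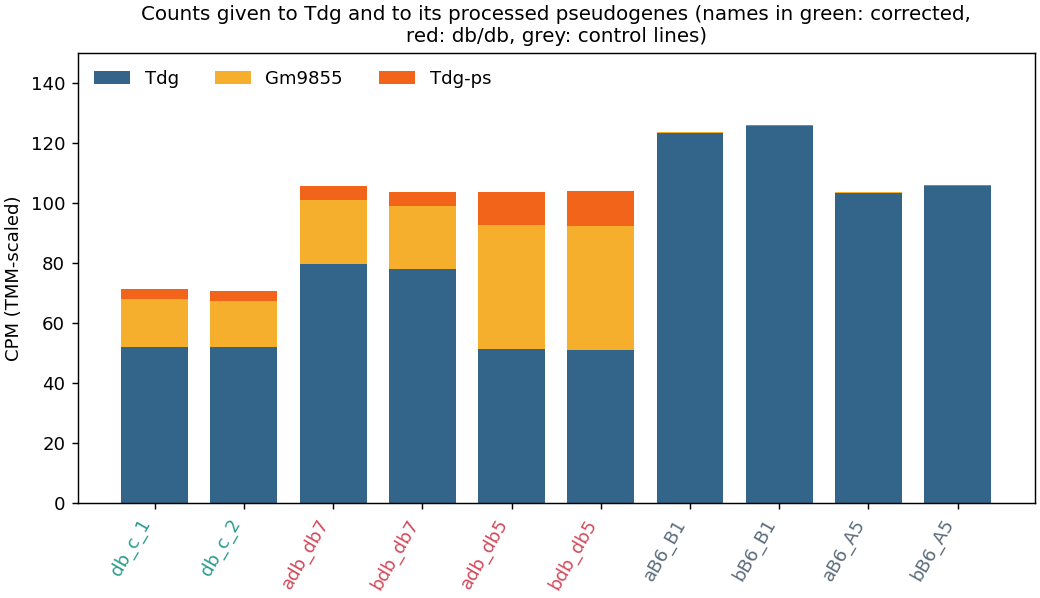
Level of Tdg (blue) with its processed pseudogenes Gm9855 (yellow) and Tdg-ps (orange) stacked, in each line (x axis; names green for corrected, red for db/db, grey for control), in CPM from 0 (y axis). The stacks of the 4 db/db lines reach 104 to 106 CPM although Tdg alone ranges from 50.9 to 79.7.

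Zfp57 (ENSMUSG00000036036, chromosome 17, 37001163 to 37010635, forward strand) was at 406 and 417 CPM in corrected lines, at 297, 300, 334 and 327 in db/db lines and at 298, 301, 316 and 320 in control lines. The corrected lines lay above all others, and db/db and control lines overlapped. Zfp57 rose 1.31-fold in corrected lines against db/db lines (0.39 ± 0.07, edgeR adjusted p = 0.00169) and 1.33-fold against control lines (0.41 ± 0.07, edgeR adjusted p = 0.00149). Both calls were met with the shared name as the unit (edgeR adjusted p = 0.0381 and 0.0389), where db_c_1 and db_c_2 still count separately. Genes of chromosome 17 had a median of -0.22 between corrected and db/db lines (461 genes). The difference of Zfp57 less this median was 0.61. Between db/db and control lines Zfp57 differed by 0.03 ± 0.05 (edgeR adjusted p = 0.763).

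Markers of other cell types are set beside these groups. Sums are over all listed genes found in the table, and the naive list holds Klf4, which the lentivirus also carries. Over all tested genes 18.7% rose and 18.0% fell in corrected against db/db lines (15.5% called by shared name). In db/db against control lines 7.41% rose and 9.5% fell (0.161% called by shared name). Of 13 primitive endoderm genes, 10 rose and none fell in corrected against db/db lines, 6 and none with the shared name as the unit, and their sum was 919 and 888 CPM in corrected lines, 511 to 641 in db/db lines and 629 to 724 in control lines. Of 15 naive state genes 7 fell and 1 rose in corrected against db/db lines, 3 and none by shared name, and their sum was 3600 CPM in both corrected lines, 3920 to 4260 in db/db lines and 3950 to 4430 in control lines. Of 12 genes of the primed state 5 rose and 1 fell in db/db against control lines (sums 409 to 488 CPM in db/db lines and 364 to 399 in control lines). Of 16 tested genes of the two-cell-like state 15 fell in db/db against control lines, with sums of 5.40 to 17.0 CPM in db/db lines and 37.7 to 46.4 in control lines. Of 15 fibroblast genes 11 fell in db/db against control lines and 7 rose and none fell in corrected against db/db lines (3 and none with the shared name as the unit), with sums of 330 and 272 CPM in corrected lines, 171 to 242 in db/db lines and 326 to 431 in control lines. In the fit by shared name edgeR called 0 genes of these lists between db/db and control lines, where 14 two-cell-like and 11 fibroblast genes were lower, and 5 primed genes higher and 1 lower, at an unadjusted p under 0.05. Among 10 trophoblast genes only Tpbpa had no count in any line, and the sums were 42.4 and 43.4 CPM in corrected lines, 49.3 to 54.1 in db/db lines and 40.0 to 53.8 in control lines. The part of any of these in the levels of the 10 genes was not tested.

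Lists of genes that work beside the 10 lay near the share over all tested genes in db/db against control lines, from 3 called of 23 (partners of the writers) to 5 of 22 (genes around the TET enzymes), where 16.9% of all genes were called. In corrected against db/db lines they ran from 11 called of 44 (germline genes) to 5 of 10 (methyl-CpG binding family), against 36.7% of all genes. With the shared name as the unit edgeR called 0 genes of any of these lists between db/db and control lines (0 to 4 higher and 0 to 3 lower per list at an unadjusted p under 0.05). In corrected against db/db lines that fit called 0 to 3 higher and 1 to 9 lower per list. Among 10 genes of the methyl-CpG binding domain family and of methyl-CpG binding zinc finger proteins, 2 rose in db/db against control lines (median log2 0.06). Zbtb38 was at 31.9, 31.6, 38.1 and 48.4 CPM in db/db lines, against 25.9, 25.3, 18.9 and 18.1 in control lines (0.77 ± 0.16, edgeR adjusted p = 0.0125). In corrected against db/db lines 2 rose and 3 fell. Zbtb4 was at 7.76 and 8.15 CPM in corrected lines, against 2.52 to 3.82 in db/db lines (1.24 ± 0.16, edgeR adjusted p = 0.000424), and Mbd3, a subunit of the NuRD complex that in mammals does not bind methylated CpG selectively, at 85.4 and 88.0, against 107 to 150 (-0.58 ± 0.13, edgeR adjusted p = 0.00703).

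Of 23 partners of the writers, 3 rose and none fell in db/db against control lines, and 2 rose and 5 fell in corrected against db/db lines. Setdb1, the histone methyltransferase recruited by TRIM28, was at 229, 233, 272 and 285 CPM in db/db lines, against 218, 216, 160 and 160 in control lines (0.44 ± 0.12, edgeR adjusted p = 0.0361; 0.0506 with the length trend removed). It lies on chromosome 3, like Tet2, and it fell in corrected lines, at 158 and 160 CPM (-0.68 ± 0.15 against db/db lines, edgeR adjusted p = 0.00722), where the median of that chromosome was -0.425. The chromatin remodeller Atrx averaged 791 ± 172 CPM in db/db and 579 ± 63 in control lines (SD, n = 4 each; 0.45 ± 0.14, edgeR adjusted p = 0.0476), and E2f6, a repressor of germline genes, 22.3 ± 0.57 CPM in db/db and 18.4 ± 1.2 in control lines (0.27 ± 0.07, edgeR adjusted p = 0.0205). In corrected against db/db lines Max, the partner of MYC and of the repressor MGA, fell by 0.74 ± 0.09 (edgeR adjusted p = 0.000342), and Kdm1b, a histone demethylase needed for imprints in mouse oocytes, rose by 0.76 ± 0.14 (edgeR adjusted p = 0.00299). Of 14 tested genes of imprint protection, a list that also holds Setdb1, 3 rose in db/db against control lines and 4 fell in corrected against db/db lines. The X-linked ubiquitin ligase Rlim had 383 to 528 CPM in db/db lines, against 270 to 300 in control lines (0.60 ± 0.09, edgeR adjusted p = 0.0031), and 264 and 258 in corrected lines (-0.74 ± 0.12 relative to db/db, edgeR adjusted p = 0.0013). Arid4b, which takes part in imprinting in mice, rose in db/db lines (0.35 ± 0.08, edgeR adjusted p = 0.0195).

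The base excision repair list, the genes that act after or beside TDG, held 22 tested genes, of which 1 rose and 2 fell in db/db against control lines and 4 rose and 5 fell in corrected against db/db lines. Neil3, a DNA glycosylase, was at 7.28 and 6.999 CPM in corrected lines, at 3.06 to 4.52 in db/db lines and at 6.34 to 6.79 in control lines. It fell in db/db against control lines (-0.78 ± 0.13, edgeR adjusted p = 0.00411) and rose in corrected lines relative to db/db lines (0.88 ± 0.15, edgeR adjusted p = 0.00188). Apobec1 fell (-0.74 ± 0.18, edgeR adjusted p = 0.0203) and the X-linked Apex2 rose (0.49 ± 0.15, edgeR adjusted p = 0.0432; 0.0793 with the length trend removed) in db/db against control lines. Apex1, the main nuclease that cuts at sites left by glycosylases, was at 135 and 131 CPM in corrected lines, against 177 to 193 in db/db lines (-0.50 ± 0.06, edgeR adjusted p = 0.000291).

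Of 22 tested genes around the TET enzymes, 3 rose and 2 fell in db/db against control lines, and 2 rose and 7 fell in corrected against db/db lines. Ogt, the X-linked sugar transferase that binds TET proteins, was at 318 and 376 CPM in db7 and 236 and 241 in db5 lines, against 205 to 222 in control lines (0.47 ± 0.13, edgeR adjusted p = 0.0402). Prdm14, which represses the de novo methyltransferases in mouse embryonic stem cells, fell in db/db lines, at 31.6 to 41.0 CPM, against 39.2 to 55.9 in control lines (-0.45 ± 0.13, edgeR adjusted p = 0.0355). The vitamin C transporter Slc23a2 rose by 0.27 ± 0.07 (edgeR adjusted p = 0.021), and Hdac2 fell by 0.28 ± 0.08 (edgeR adjusted p = 0.0299). In corrected against db/db lines Hmces, which shields abasic sites, was at 87.6 and 85.3 CPM, against 171 to 204 (-1.15 ± 0.11, edgeR adjusted p = 0.000105). Idh1, which makes the TET cofactor oxoglutarate, was at 117 and 115 CPM in corrected lines, against 68.5 to 76.1 in db/db lines (0.68 ± 0.08, edgeR adjusted p = 0.000287).

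Of 33 tested genes of one-carbon metabolism, which supplies the methyl group, 3 rose and 13 fell in corrected lines relative to db/db lines (2 and 9 with the shared name as the unit, median log2 -0.25, against 0.02 over all tested genes), and 3 rose and 3 fell in db/db against control lines. Mat2a, which makes S-adenosylmethionine, the methyl donor of all DNA methyltransferases, was at 99.5 and 99.0 CPM in corrected lines, at 208, 214, 240 and 251 in db/db lines and at 223, 215, 184 and 187 in control lines. It fell in corrected lines relative to db/db lines (-1.20 ± 0.11, edgeR adjusted p = 8.38e-05). Mthfd1l, a mitochondrial folate enzyme, was at 72.3 and 74.0 CPM in corrected lines, against 120 to 134 in db/db lines (-0.79 ± 0.07, edgeR adjusted p = 8.76e-05). In db/db against control lines Cth, which makes cysteine, was at 111 to 126 CPM, against 163 to 190 (-0.59 ± 0.07, edgeR adjusted p = 0.000654). Mtrr, which keeps methionine synthase active, fell as well (-0.33 ± 0.06, edgeR adjusted p = 0.00585), and Ahcyl2 rose (0.51 ± 0.07, edgeR adjusted p = 0.00134).

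Germline genes whose promoters are silenced by DNA methylation in somatic mouse cells are given next. Of 44 tested, 4 rose and 4 fell in db/db against control lines, and 7 rose and 4 fell in corrected against db/db lines. Between db7 and db5 lines 12 rose and 22 fell (median log2 -0.46, against 0.01 over all tested genes, of which 42.0% were called). Tex15 was at 4.82 and 4.42 CPM in corrected lines, at 10.6 to 14.4 in db/db lines and at 5.06 to 5.78 in control lines, with a rise in db/db against control lines (1.11 ± 0.12, edgeR adjusted p = 0.000465) and a fall in corrected lines relative to db/db lines (-1.33 ± 0.15, edgeR adjusted p = 0.00026). Ddx4 rose in db/db lines (0.60 ± 0.10, edgeR adjusted p = 0.00405). Rpl10l, a retrocopy of Rpl10 with which it may share reads, fell (-1.15 ± 0.13, edgeR adjusted p = 0.000645), as did Smc1b, a meiotic cohesin, at 3.37 and 4.21 CPM in db7 and 7.36 and 8.32 in db5 lines, against 38.3 and 38.2 in B1 and 17.6 and 15.8 in A5 controls (-2.24 ± 0.38, edgeR adjusted p = 0.0046). Brdt, at or under 1.05 CPM in all lines, rose in corrected lines relative to db/db lines (1.26 ± 0.21, edgeR adjusted p = 0.00151).

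Imprinted genes are set beside the 10 genes as a description. Of 26 tested genes read from the maternal allele, 5 fell and none rose in db/db against control lines (median log2 -0.07), and 7 rose and 6 fell in corrected against db/db lines (5 and 2 with the shared name as the unit). Meg3, a noncoding RNA of the Dlk1-Dio3 cluster, was at 37.6 and 41.0 CPM in corrected lines, at 4.09 and 4.79 in db7 and 15.2 and 14.8 in db5 lines, and at 66.8, 71.2, 49.5 and 46.3 in control lines. Every db/db line lay below every corrected and control line, with db7 lowest (-2.58 ± 0.42 for db/db against control, edgeR adjusted p = 0.00382; 2.01 ± 0.47 for corrected minus db/db, edgeR adjusted p = 0.00832, and 0.057 with the shared name as the unit). Rian and Mirg of the same cluster and strand fell with it (-2.76 ± 0.56 and -2.91 ± 0.68, edgeR adjusted p = 0.0103 and 0.0182), as did H19, at 42.1 and 36.2 CPM in corrected lines, 6.95 to 13.1 in db/db lines and 17.4 to 20.3 in control lines (-0.85 ± 0.20, edgeR adjusted p = 0.0169; 1.93 ± 0.23 for corrected minus db/db, edgeR adjusted p = 0.000294). Igf2r, which degrades IGF2, rose in corrected against db/db lines, at 152 and 145 CPM, against 96.5 to 115 (0.54 ± 0.08, edgeR adjusted p = 0.000721).

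Of 35 tested genes read from the paternal allele, 1 rose and 7 fell in db/db against control lines (median -0.13), and 11 rose and 4 fell in corrected against db/db lines (5 and 2 with the shared name as the unit). These calls are 22.9% of the list, against 16.9% of all tested genes, and 42.9%, against 36.7% (15.5% of all genes by shared name). Plagl1, a zinc finger factor, was at 27.1 and 26.2 CPM in corrected lines, at 8.46 to 13.1 in db/db lines and at 21.7 to 25.3 in control lines (-1.14 ± 0.14 for db/db against control, edgeR adjusted p = 0.00091; 1.30 ± 0.16 for corrected minus db/db, edgeR adjusted p = 0.000406). The growth factor Igf2 was at 26.1 and 22.6 CPM in corrected lines, at 2.61 to 3.49 in db/db lines and at 3.82 to 6.89 in control lines (3.02 ± 0.24 for corrected minus db/db, edgeR adjusted p = 4.55e-05; -0.79 ± 0.21 for db/db against control, edgeR adjusted p = 0.0279). Impact went the other way, at 128 and 133 CPM in corrected lines, 228 to 269 in db/db lines and 172 to 210 in control lines (-0.95 ± 0.10 for corrected minus db/db, edgeR adjusted p = 0.000142; 0.43 ± 0.08 for db/db against control, edgeR adjusted p = 0.00588). Dio3 and Peg13 fell in db/db against control lines (-1.77 ± 0.33 and -0.54 ± 0.11, edgeR adjusted p = 0.00683 and 0.00928). Peg3 was at 786 and 801 CPM in corrected lines, at 206 and 275 in db7 and 533 and 534 in db5 lines, and at 368 to 484 in control lines. Its db/db lines thus lay on both sides of the control lines (-0.13 ± 0.28, edgeR adjusted p = 0.779), and it rose in corrected lines relative to db/db lines (1.04 ± 0.33, edgeR adjusted p = 0.0331). That call ended with the shared name as the unit (edgeR adjusted p = 0.0985) and with the length trend removed (0.0838). Snrpn, Mest and Kcnq1ot1 passed in none of the comparisons between genotypes (edgeR adjusted p = 0.288 to 0.902), and Snrpn shares a transcript with Snurf. Igf2r and Airn, Kcnq1 and Kcnq1ot1, and genes of the Gnas cluster overlap on opposite strands, and how reads were assigned by strand is not given in the sources used here.

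With the shared name as the unit, none of the 31 genes picked from these lists that passed between db/db and control lines kept its call (edgeR adjusted p = 0.0853 to 0.327). In both imprinted lists edgeR then called 0 genes in that comparison, with 1 higher and 4 lower of the maternal and 2 higher and 7 lower of the paternal list at an unadjusted p under 0.05. Side by side by kind, the db7 lines had the lowest Meg3, H19 and Peg3 and the highest Tet2, with Zfp57 at 334 and 327 CPM, near its level in the B1 control lines. The corrected lines had the highest Zfp57, Dnmt3l and Tet3 together with the highest Igf2, H19, Igf2r and Peg3, and with Impact at its lowest. With 5 kinds of line, no relation between these levels was tested.

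**Figure D5:**
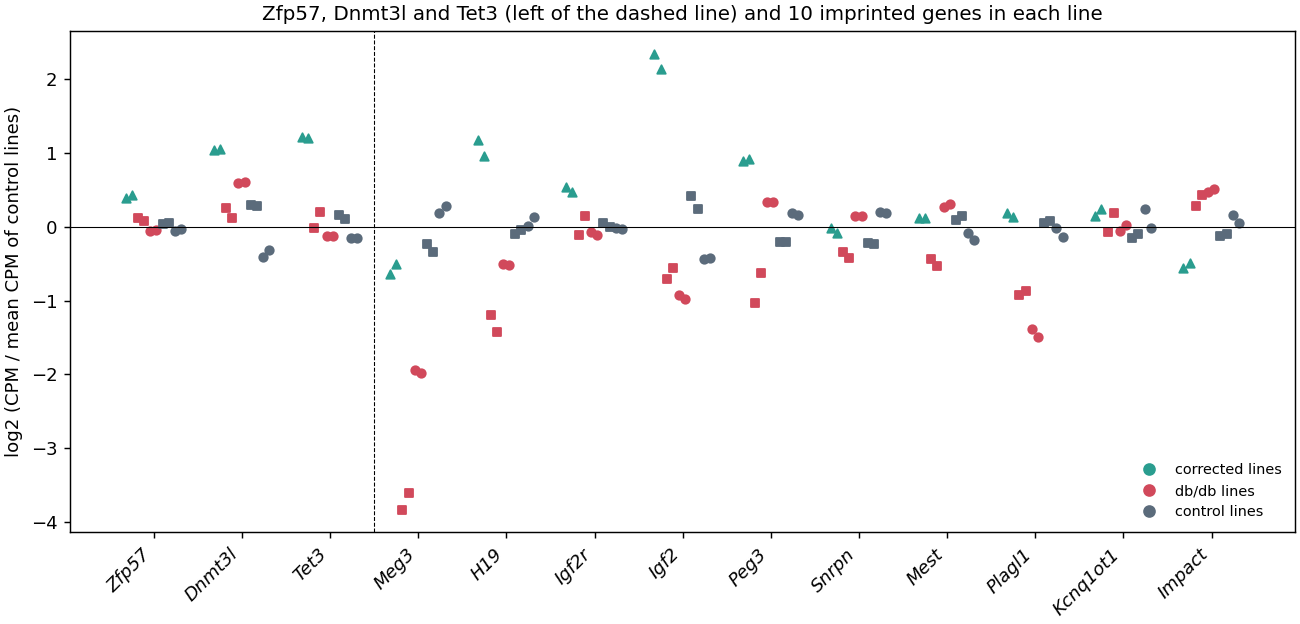
Log2 ratio of each line's CPM to the mean of the 4 control lines (y axis) for Zfp57, Dnmt3l and Tet3 (left of the dashed line) and 10 imprinted genes, with corrected lines in green (triangles), db/db lines in red and control lines in grey (circles for db5 and A5, squares for db7 and B1). Meg3 lies below all control lines in every db/db line, and Igf2 lies above all other lines in both corrected lines.

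For each of the 10 genes the genes with the most similar profile were found, by the root mean square difference of centred log2 CPM over the 10 lines among 8600 named genes. The nearest to Dnmt3b were Fxr2, Tsc2 and Ckap2l (0.025 to 0.031, where the SD of Dnmt3b itself over the lines was 0.072), and the nearest to Uhrf1 were Anapc5, Rps18 and Fam76a (0.030 to 0.032, against 0.125). For Dnmt1 they were Ccdc9, Eps15l1 and Kif20a (0.037 to 0.043, against 0.097) and for Zfp57 Zgpat, Jak1 and Pank2 (0.045 to 0.048, against 0.171). Rock1, Rif1 and Zkscan1 were nearest to Tet1 (0.057 to 0.067, against 0.229) and Ash1l, Ly75 and Snx10 to Tet2 (0.095 to 0.128, against 0.409). Among the nearest to Tet3 were Erbb3 and Heca (0.117 and 0.119, against 0.505), to Dnmt3l Psme4 and Msln (0.121 and 0.127, against 0.467), to Dnmt3a Dlgap1, Armcx1 and Trap1a (0.126 to 0.144, against 0.422) and to Tdg, as counted, Lox, Reg2 and Selenoi (0.139 to 0.171, against 0.519). None of the 10 genes was among the 3 nearest of another.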

How the data were processed

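Poly(A) RNA of 19 libraries was prepared as stranded libraries, per the labels' protocols. Estimated counts, 1 value per gene and library, are what the authors deposited. The submitters' processing notes list kallisto and GRCm38 (version and index not given in the sources used here). Estimated counts divide reads among similar transcripts, so near copies can take each other's counts. Groups and lines were read from the labels. Counts were rounded per library, summed per line (41192071 to 73120718 counts), filtered with filterByExpr, TMM-scaled and tested in edgeR 4.0.16 under R 4.3.3, with all groups in 1 fit and a threshold of 0.05; kinds of line were compared in a second fit. The SE is the log2 fold change divided by the root of F. The labels do not say that libraries or lines of a shared name are separate cultures, so p-values may measure technical spread. The 10 genes were given, and the lists were written, with earlier results of these data known. Named were all 10 genes, of each list up to 4 genes with the lowest p in db/db against control and 2 in corrected against db/db lines among those called, 10 fixed imprinted genes and the 3 nearest profiles. Names and coordinates came from GENCODE M21 (51250 identifiers matched), promoters from RefSeq, near copies from blastn 2.17.0 (at least 90% identity over 200 bases). The edgeR fit of db/db against control lines was tested on simulated independent lines, which cannot show the effect of shared names. Alternatives were other scalings and filters, DESeq2 1.42.0, single libraries, shared names as the unit (the corrected lines kept apart), the first letter as a covariate, chromosome medians and leaving out each line. Summed copies and the removal of a lowess trend over transcript length were added after the data were examined. Whether duplicate numbers pair libraries across lines was not settled. Some genes that this rule picks are not reported here. Protein sequences were not analysed here.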

Additional observations from a re-analysis of the deposited data

Results flagged for a closer look

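Tet1 in line bdb_db7 stood apart from the other 3 db/db lines, at 610 CPM, against 417 to 448: the gap to the next line was above Dixon's critical value of 0.829 of the range for 4 samples. For 4 independent values chance flags about 1 in 20 such groups, but these lines share names in pairs, so that rate need not hold here. In all, 20 groups (10 genes in db/db and in control lines) were examined. Over genes with transcripts over 10 kb, the median of the per-gene log2 differences of bdb_db7 from adb_db7 was 0.29, and the difference of Tet1 was 0.55.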

How the results depend on the processing

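Of db/db against control lines, 2 of the 10 genes were called. The count was 1 to 3 when each line was left out in turn (1 without aB6_A5 or bB6_A5, 3 without bdb_db7), 0 with the shared name as the unit, 6 with each library as a sample, 1 with the first letter as a covariate, and 1 with near copies summed (0 with the shared name as well). On control and db/db libraries alone it was 5 without and 4 with the replicate block. Differences between duplicates 2 and 1 correlated between db/db and control lines at -0.0501 to 0.613 over 12 pairs. Whether duplicate numbers mark libraries handled together was not settled. Of corrected against control lines 7 were called, 4 to 7 when lines were left out (4 without either corrected line) and 4 with the length trend removed. Counts of the other comparisons stayed within 1.5 times. The signs that turned were those of differences that had not passed. With library size alone these were Zfp57 for db/db against control (-0.016), Dnmt1, Uhrf1 and Dnmt3b for corrected against db/db (0.079, 0.023 and 0.148), Dnmt1 for corrected against control (0.003) and Tet1 for B1 against A5 (0.024). Dnmt3b for corrected against db/db was 0.003 with upper quartile scaling and 0.010 with a filter of 1 CPM in 2 lines. With the length trend removed, corrected against db/db gave -0.027 for Dnmt3a, 0.017 for Dnmt3b and -0.009 for Tet1, and db7 against db5 gave -0.021 for Dnmt3b and -0.036 for Tet1. Leaving out lines turned db/db against control for Dnmt1 (-0.084 to 0.012), Tet3 (-0.095 to 0.043, with 0.019 without adb_db5 and 0.022 without bdb_db5) and Zfp57 (-0.003 to 0.051), Tet1 for db7 against db5 (-0.094 to 0.456; -0.094 without bdb_db7, which passed at edgeR adjusted p = 0.0351) and Tet1 for B1 against A5 (-0.028 to 0.008). The cause was not tested. Of 1150 values of single genes under alternatives, 1038 kept sign and side of the threshold, 46 lost and 30 gained a call. Counts per line (723 at the lowest, Tet3) did not limit these genes.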
